A study of Mus musculus with 5 samples.

Results

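The endothelial genes described here are 37 mouse genes whose products are characteristic of the cells that line blood and lymph vessels, among 54232 genes measured in cultures of primary myoblasts. They were taken by name from a list of 7 transcription factors, 11 receptors, 12 surface or junction proteins, 5 secreted proteins and 2 intracellular proteins. A level of 5 normalized counts in 1 sample or more was reached by 35 of them, and by 18156 genes in all, while Aplnr and Lyve1 stayed below it. The myoblasts came from leg muscles of mice aged 6 to 8 weeks. The mice were either WT (n = 3) or homozygous for the Elmo2 EID knock-in allele (Elmo2 EID/EID, n = 2, called EID from here on). Their genetic background, a mix of C57BL6 and another strain, was given as the same for both genotypes. All 5 cultures had been differentiated for 72 h in low-serum medium before poly-A RNA was sequenced. EID carries the substitution I196D in ELMO2, an adaptor protein of the DOCK1 Rac activation pathway, and biases the protein towards its open conformation. The allele is constitutive, so every cell type of the mouse carried it, the endothelium included, and the sources do not say which animal gave which culture. Cells had been separated from the digested muscle with a satellite cell isolation kit and anti-integrin alpha-7 beads, a selection meant to leave endothelial cells behind.

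Endothelial cells form the inner wall of vessels and hold together through junction proteins such as VE-cadherin. Transcription factors of the ETS, SoxF and TAL families maintain their identity, and receptors for VEGF, angiopoietins, apelin and sphingosine 1-phosphate control their growth, survival and barrier. Skeletal muscle is rich in capillaries, so digested muscle contains endothelial cells alongside satellite cells, fibro-adipogenic progenitors, pericytes, Schwann cells and blood cells.

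The libraries held 35021856 to 49381544 reads counted to genes, and 1 read was worth 0.884 to 1.24 normalized counts, a normalized count being the read count divided by the size factor of the sample. The label of the cultures was borne out by muscle genes: all 12 myogenic genes on a list of such genes were above 5 normalized counts and none passed the test between genotypes. Myh3, the embryonic myosin heavy chain, stood at 560936, 602709 and 469649 normalized counts in WT replicates 1, 2 and 3 and at 395823 and 543066 in EID replicates 1 and 2. The endothelial genes together summed to 4829, 2721 and 4776 normalized counts in WT and to 8713 and 12249 in EID. Thus WT replicate 2 stood apart from the other WT samples for these genes, and the fold changes printed for single endothelial genes that separated the genotypes are followed by the value without it. In bulk RNA, fewer cells of a type and less RNA per cell cannot be told apart.

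Most of the endothelial genes were higher in the EID than in the WT cultures, by a median of 2.06 on the log2 scale (EID over WT, of normalized count + 1), whereas the median over all 18156 genes tested was 0.01. Both EID samples lay above every WT sample for 29 of the 37 genes, an order found for 16.7% of all genes tested. The 29 include Aplnr, which was too low to be tested. Of the 37 genes, Cldn5 was the only one with both EID samples below every WT sample, the order of 15.9% of all genes. The groups overlapped for Clec14a, Ets1, Fli1, Lyve1, Ramp2, Rasip1 and S1pr1. Without WT replicate 2 the median difference of the endothelial genes was 1.44. Few of the genes passed a test adjusted over all genes. By limma with Benjamini-Hochberg adjustment, 1 of the 37, Esm1, was higher at an adjusted p under 0.05 and none was lower, while of all genes tested 2.23% were called, 1.09% as higher and 1.14% as lower. At an unadjusted p under 0.05, 23 of the 37 were higher and none was lower, beside 6.93% of all genes tested that were higher and 8.31% that were lower. On reads recovered from the table, edgeR's quasi-likelihood test called Esm1, Flt1, Myct1 and Robo4 higher (4 genes, beside 1.12% of all genes), and DESeq2 called 13 higher and none lower (beside 2.38% and 3.17% of all genes). The 13 were those 4 with Ecscr, Erg, Esam, Flt4, Plvap, Sox17, Tal1, Tie1 and Vwf. Many of these genes moved together across the samples, as described below, so these counts are not counts of independent events. Icam2 passed the filter on low values only through the EID samples, and for Aplnr, Cldn5, Egfl7 and Nos3 the gap between the groups was smaller than the worth of 1 read.

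**Figure D1:**
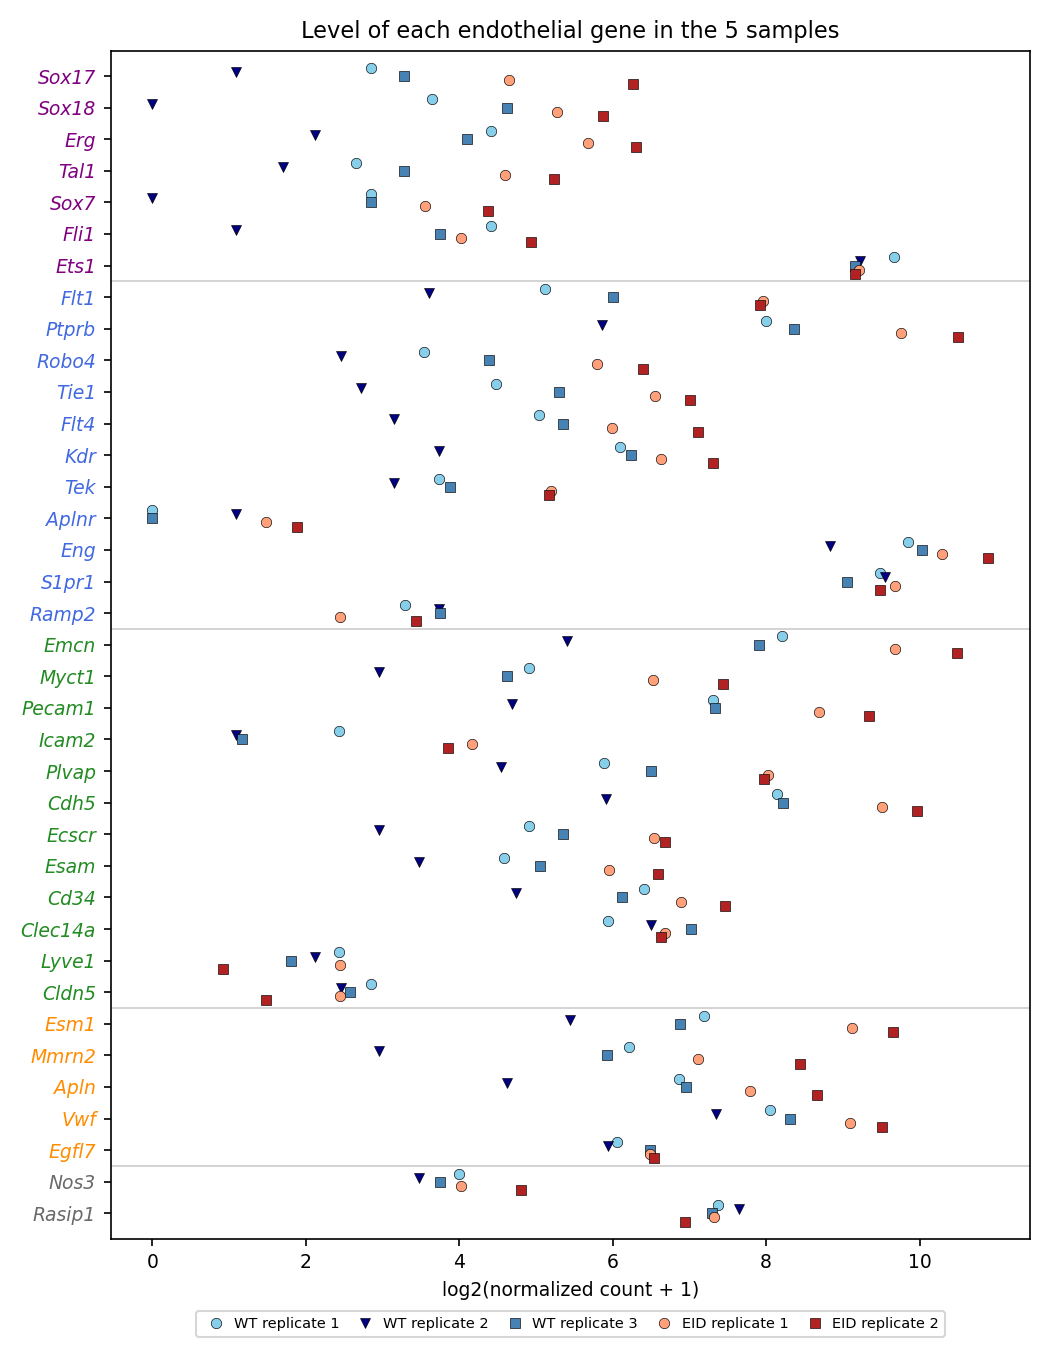
Level of each of the 37 endothelial genes as log2(normalized count + 1) on the horizontal axis, 1 row per gene grouped by role and 1 symbol per sample, with symbols offset vertically to keep them apart. For 28 of the 37 genes WT replicate 2 lay lowest and both EID samples lay above every WT sample.

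Levels compared between genes were divided by exon length. In WT, S1pr1 was highest with a mean of 218 normalized counts per kb of exon, followed by Eng with 199, Ets1 with 77.6, Rasip1 with 54.0 and Cdh5 with 50.6. The lead of S1pr1 rested on WT replicate 2, since in WT replicates 1 and 3 Eng was at 227 and 259 per kb and S1pr1 at 235 and 175, and Cdh5 (66.8 and 70.7) and Esm1 (69.1 and 55.7) were then above Rasip1 (51.3 and 48.5). In EID the order was Eng with 389, Esm1 with 324, S1pr1 with 252, Emcn with 209 and Cdh5 with 206. Among the leading genes in WT, S1pr1, Ets1 and Rasip1 were genes whose groups overlapped, whereas Esm1 and Emcn stood higher in the EID order. Aplnr was last in both groups with 0.101 and 0.605 per kb, and had at most 3 reads in any sample.

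The transcription factors were present at low read numbers except for Ets1. Sox17, a SoxF factor of arterial endothelium (chr1:4490931-4497354, GRCm38), stood at 6.18, 1.12 and 8.70 normalized counts in WT replicates 1, 2 and 3 and at 24.1 and 76.2 in EID replicates 1 and 2. Both EID samples were above all WT samples, and EID replicate 2 was the higher by a wide margin. The log2 fold change was 3.06 ± 0.78 (SE), or 2.40 without WT replicate 2, with an adjusted p of 0.116 from limma and 0.00358 from DESeq2. Erg, an ETS factor needed for endothelial identity, was at 20.3, 3.37 and 16.2 in WT and 50.1 and 78.0 in EID, without overlap. Its log2 fold change was 2.44 ± 0.69 (SE), or 1.73 without WT replicate 2, with an adjusted p of 0.158 from limma and 0.0148 from DESeq2. Tal1, a basic helix-loop-helix factor of blood and endothelial precursors, was at 5.30, 2.24 and 8.70 in WT and 23.3 and 36.8 in EID. Again the groups did not overlap, and the log2 fold change was 2.38 ± 0.54 (SE), or 1.95 without WT replicate 2, with an adjusted p of 0.0883 from limma and 0.0211 from DESeq2. Sox18, the SoxF factor known for its part in lymphatic development, had no read in WT replicate 2, was at 11.5 and 23.6 in the other WT samples and reached 37.6 and 57.4 in EID. Sox7 followed the same order at lower levels, with 6.18, 0 and 6.22 in WT and 10.7 and 19.7 in EID. Neither passed any of the tests. Fli1, an ETS factor shared by endothelium and blood, overlapped between the groups with 20.3, 1.12 and 12.4 in WT and 15.2 and 29.6 in EID. Ets1, an ETS factor also expressed outside the endothelium, was at 809, 594 and 570.6 in WT and 593 and 570.2 in EID, and the groups overlapped (log2 fold change -0.16 ± 0.16, SE). Of the 7 factors, 6, all but Ets1, were at 3 reads or fewer in WT replicate 2, the lower limit used here.

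The receptors for VEGF and the TIE kinases lay above every WT sample in both EID samples. Flt1, the VEGF receptor that binds VEGF with high affinity and limits its signal (chr5:147561604-147726011), was at 33.6, 11.2 and 63.4 normalized counts in WT and at 247 and 240.3 in EID. The EID samples were close to each other and well above all WT samples. Its mean went from 36.1 ± 26.2 (SD, n = 3) to 244 ± 4.65 (SD, n = 2), a log2 fold change of 3.02 ± 0.63 (SE), or 2.37 without WT replicate 2. The adjusted p was 0.0694 from limma and 0.0414 from edgeR. Kdr, the main signalling receptor for VEGF in blood vessels, was at 67.1, 12.3 and 74.6 in WT and 98.4 and 157 in EID, a smaller separation that passed none of the tests. Flt4, the VEGF-C receptor of lymphatic endothelium, was at 31.8, 7.85 and 39.8 in WT and 62.6 and 137 in EID and passed only with DESeq2 (adjusted p 0.0469). For the TIE receptors, Tie1 was at 21.2, 5.61 and 38.5 in WT and 93.0 and 127 in EID, with an adjusted p of 0.137 from limma and 0.00471 from DESeq2. Tek, which encodes the angiopoietin receptor TIE2, was at 12.4, 7.85 and 13.7 in WT and 35.8 and 35.0 in EID (log2 fold change 1.60 ± 0.34, SE, or 1.38 without WT replicate 2). Both separated the genotypes without overlap. Ptprb, the phosphatase VE-PTP that acts on TIE2 and VE-cadherin, was at 255, 57.2 and 327 in WT and 868 and 1453 in EID. Robo4, a guidance receptor that stabilises vessels, was at 10.6, 4.49 and 19.9 in WT and 54.6 and 83.4 in EID, a log2 fold change of 2.64 ± 0.57 (SE), or 2.14 without WT replicate 2, with an adjusted p of 0.0770 from limma and 0.0478 from edgeR. All EID values of both genes were above the WT values.

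The other receptors differed from these. Eng, the TGF-beta co-receptor endoglin, is also expressed by stromal cells and was abundant in every sample, at 919, 453 and 1048 in WT and 1249 and 1899 in EID. Its groups separated, but the log2 fold change of 1.02 ± 0.36 (SE), or 0.65 without WT replicate 2, was less than that of the kinases Flt1 and Tie1, a difference between genes that was not tested. S1pr1, the sphingosine 1-phosphate receptor, overlapped with 716, 746 and 532 in WT and 819 and 718 in EID. Ramp2, the partner of the adrenomedullin receptor, was at 8.84, 12.3 and 12.4 in WT and 4.47 and 9.86 in EID and also overlapped, and some of its exon sequence lies over Vps25 on the same strand. Aplnr, the apelin receptor, had 0, 1 and 0 reads in WT and 2 and 3 in EID, too few for any statement on a difference.

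**Figure D2:**
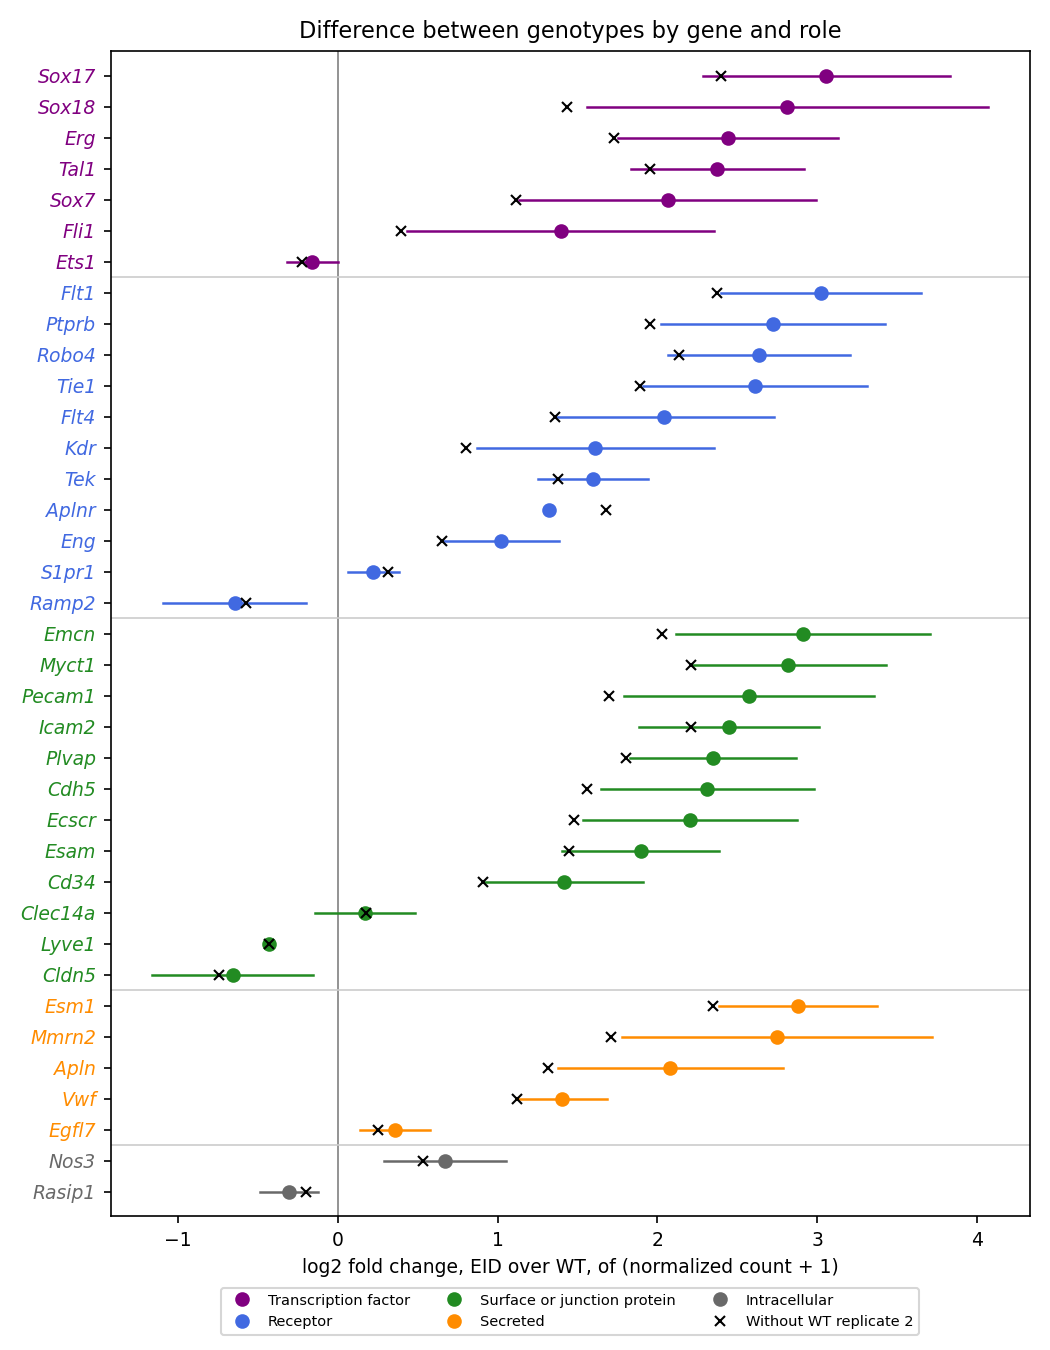
Log2 fold change, EID over WT, of each endothelial gene on the horizontal axis, with points coloured by role, bars of 1 standard error from limma (none for Aplnr and Lyve1, which were not tested) and crosses for the value without WT replicate 2. Sox17 was largest at 3.06 and Cldn5 lowest at -0.66, and nearly all crosses of the separated genes lay left of their points.

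The classical surface markers of endothelium lay above every WT sample in both EID samples. Pecam1 (CD31), the adhesion molecule of endothelial contacts (chr11:106654217-106750628), was at 157, 24.7 and 160.4 normalized counts in WT and 410.5 and 649.9 in EID. Cdh5, which encodes VE-cadherin of the adherens junction (chr8:104101625-104144511), was at 281, 59.4 and 297 in WT and 727 and 1001 in EID. Emcn, the sialomucin endomucin of capillaries and veins, was at 293, 41.5 and 239.9 in WT and 817 and 1439 in EID. For each of these 3 genes WT replicates 1 and 3 were close, WT replicate 2 was far lower and EID replicate 2 was highest. Over all 5 samples none of the 3 passed, with an adjusted p from limma of 0.188, 0.165 and 0.143. Without WT replicate 2 all of them passed, at log2 fold changes of 1.70, 1.56 and 2.03 and an adjusted p from limma of 0.0354, 0.0189 and 0.0350. In that fit 7 of the 37 genes passed, the other 4 being Esm1, Flt1, Plvap and Ptprb, where 0.724% of all genes were called higher.

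Plvap, which forms the diaphragms of fenestrae and caveolae, was at 58.3, 22.4 and 89.5 in WT and 258 and 250.1 in EID, and unlike the markers above its EID samples were close to each other. Its log2 fold change was 2.35 ± 0.52 (SE), or 1.80 without WT replicate 2, with an adjusted p of 0.0825 from limma and 0.00013 from DESeq2. Myct1, a small membrane protein of endothelium, was at 29.2, 6.73 and 23.6 in WT and 91.2 and 172 in EID, with an adjusted p of 0.0789 from limma and 0.0483 from edgeR (log2 fold change 2.82 ± 0.61, SE, or 2.21 without WT replicate 2). Each of the 2 separated the genotypes. Esam, an adhesion molecule of tight junctions, was at 22.97, 10.1 and 32.3 in WT and 60.8 and 95.03 in EID. Ecscr, a receptor-like protein of endothelial migration, was at 29.2, 6.73 and 39.8 in WT and 92.1 and 101 in EID. Esam and Ecscr both passed only with DESeq2, at an adjusted p of 0.0122 and 0.0240. Icam2, an adhesion molecule for leukocytes, was at 4.42, 1.12 and 1.24 in WT and 17.0 and 13.4 in EID, hence above 5 normalized counts in EID alone. Cd34, a sialomucin of capillaries that satellite cells and fibro-adipogenic progenitors carry as well, was at 83.9, 25.8 and 68.4 in WT and 117 and 175 in EID and passed none of the tests.

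The last 3 surface genes did not have both EID samples above every WT sample. Cldn5, the main claudin of endothelial tight junctions, was near the lower limit of 3 reads in every sample, at 6.18, 4.49 and 4.97 in WT and 4.47 and 1.79 in EID, so a defining junction gene was almost unread in cultures where Cdh5 and Pecam1 were well detected. Clec14a, a C-type lectin of the endothelial surface, overlapped with 60.1, 89.7 and 129.3 in WT and 102 and 97.7 in EID. Lyve1, the hyaluronan receptor of lymphatic endothelium, stayed under 5 normalized counts in all samples, at 4.42, 3.37 and 2.49 in WT and 4.47 and 0.896 in EID.

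All 5 secreted proteins had both EID samples above every WT sample, beside 16.7% of all genes tested, but Egfl7 by less than the worth of 1 read. Esm1, the proteoglycan endocan of angiogenic tip cells (chr13:113209659-113218098), was at 145, 42.6 and 117 normalized counts in WT replicates 1, 2 and 3 and at 555 and 803 in EID replicates 1 and 2. Its mean rose from 101 ± 52.8 (SD, n = 3) to 679 ± 175 (SD, n = 2), a ratio of 6.70, and the log2 fold change was 2.88 ± 0.49 (SE), or 2.35 without WT replicate 2. The adjusted p was 0.0397 from limma, 0.0237 from edgeR and 0.00100 from DESeq2. Without the filter on low values, the adjusted p from limma was 0.140. The limma call of Esm1 held without WT replicate 2 (adjusted p 0.0111) but not when another sample was left out, the adjusted p from limma then being 0.0579 without WT replicate 1, 0.0653 without WT replicate 3, 0.199 without EID replicate 1 and 0.330 without EID replicate 2. Vwf, the clotting factor stored in endothelial granules, was at 265, 162 and 316 in WT and 547 and 726 in EID. Its mean went from 247 ± 78.6 (SD, n = 3) to 637 ± 126 (SD, n = 2), with an adjusted p of 0.0652 from limma and 7.11e-05 from DESeq2. Apln, the ligand apelin made by sprouting tips, was at 116, 23.6 and 123 in WT and 221 and 404 in EID. Mmrn2, a matrix protein that binds Clec14a and Cd93, was at 73.3, 6.73 and 59.7 in WT and 138 and 347 in EID. Apln and Mmrn2 had the wide gap at WT replicate 2 seen for Pecam1, and neither passed. Egfl7, the matrix factor whose gene hosts Mir126a, was close in both genotypes, at 65.4, 60.6 and 88.3 in WT and 88.5 and 92.3 in EID, and its exons share strand and position with Mir126a and Gm20532. The intracellular genes differed little. Nos3, the endothelial nitric oxide synthase, was at 15.0, 10.1 and 12.4 in WT and 15.2 and 26.9 in EID. Rasip1, a regulator of vessel lumen formation whose exons overlap Izumo1, was at 164, 199 and 155 in WT and 158 and 122 in EID.

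The promoters of the 4 genes that passed with edgeR are shown so that the sequence before these genes can be read. They were read from RefSeq on GRCm38.p6, 5′ to 3′ on the strand of the gene. Each ends before the RefSeq or the GENCODE M21 start of the gene, whichever lies further upstream. For Myct1 that was the RefSeq start, since GENCODE starts the gene at 5593775. Matches to AGGAAG, 1 form of the ETS site, are in capitals, and other forms were not marked. The stretches are chr13:113209409-113209658 on the plus strand for Esm1, chr5:147726012-147726261 on the minus strand for Flt1, chr10:5593478-5593727 on the plus strand for Myct1 and chr9:37401722-37401896 on the plus strand for Robo4.
Esm1: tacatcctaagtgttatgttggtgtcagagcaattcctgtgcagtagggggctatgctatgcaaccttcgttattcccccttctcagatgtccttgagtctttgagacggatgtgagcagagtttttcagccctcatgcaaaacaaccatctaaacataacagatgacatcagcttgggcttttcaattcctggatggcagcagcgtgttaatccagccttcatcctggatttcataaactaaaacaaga
Flt1: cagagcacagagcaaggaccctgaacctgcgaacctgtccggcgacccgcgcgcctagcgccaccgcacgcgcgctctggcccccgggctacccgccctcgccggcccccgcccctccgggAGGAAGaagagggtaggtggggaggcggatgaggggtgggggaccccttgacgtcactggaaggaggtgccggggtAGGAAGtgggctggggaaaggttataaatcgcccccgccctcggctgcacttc
Myct1: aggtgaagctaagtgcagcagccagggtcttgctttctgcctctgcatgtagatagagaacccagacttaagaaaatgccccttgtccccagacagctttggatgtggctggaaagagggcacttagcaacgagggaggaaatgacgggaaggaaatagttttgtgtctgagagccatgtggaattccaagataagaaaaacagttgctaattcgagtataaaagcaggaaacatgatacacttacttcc
Robo4: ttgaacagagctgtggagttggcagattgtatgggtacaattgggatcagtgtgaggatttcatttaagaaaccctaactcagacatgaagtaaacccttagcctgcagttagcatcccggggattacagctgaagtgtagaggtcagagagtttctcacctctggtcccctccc

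Flt1 carried AGGAAG at 2 places in its stretch. In windows from 250 bases before to 50 bases after the gene start, searched on both strands, AGGAAG was found for 11 of the 18 endothelial genes with a window (61.1%) and for 38.4% of the 27025 genes with one, among them Myct1 and Robo4, whose matches lie outside the stretches shown. The Sox letters ATTGT were found for 6 of 18 (33.3%) and 34.4% of all, the forkhead letters GTAAACA for 1 of 18, Myct1 (5.56%), and 4.05% of all, and the E-box CAGCTG for 2 of 18 (11.1%) and 18.3% of all. These shares describe letters in a short window and say nothing of binding.

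The vascular transcription factors were then set against the surface markers, the receptors and surface proteins as 1 set. The 7 factors had a median log2 fold change of 2.38 (1.44 without WT replicate 2), and 5 of 7 separated with EID above WT. The 23 surface genes had a median of 2.04 (1.48 without WT replicate 2), and 18 of 23, the untested Aplnr included, separated with EID above WT. Of all genes tested, 16.7% separated in this way. The order of these medians turned when WT replicate 2 was left out, and a difference between the sets was not tested. Among the factors Ets1 and Fli1 overlapped between the genotypes, and among the surface genes S1pr1, Ramp2, Clec14a and Lyve1 did. In level the sets overlapped: Ets1 excluded, the factors had WT means of 1.12 to 7.22 normalized counts per kb, and the surface genes ran from 0.101 for Aplnr to 218 for S1pr1, with Flt1, Tie1 and Kdr inside the range of the factors. No p is given for this contrast, since genes of 1 list are not independent.

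The endothelial genes moved together across the 5 samples, within as well as between the genotypes. WT replicate 2 was the lowest of the 5 samples for 29 of 37 genes, beside 21.9% of all genes tested, and for 28 of them both EID samples were also above every WT sample, beside 6.77% of all genes. The median difference of WT replicate 2 from the mean of the other WT samples was -1.59 on the log2 scale, whereas that of WT replicate 3 from WT replicate 1 was 0.09. EID replicate 2 was above EID replicate 1 for 27 of 37 genes, beside 51.5% of all genes, with a median difference of 0.60, and was the highest of the 5 samples for 26, beside 24.0% of all genes. EID replicate 2 was not above EID replicate 1 for Cldn5, Clec14a, Ets1, Flt1, Icam2, Lyve1, Plvap, Rasip1, S1pr1 and Tek. The spread inside WT was thus of the same order as the difference between the genotypes: against WT replicates 1 and 3 alone, the ratio of the EID mean to the WT mean had a median of 2.75 over 36 genes (Aplnr had no read in those samples), and against all WT samples of 3.77 over the 37 genes. In the 28 genes with the full order, the ratio ran from 1.27 to 9.40 against all WT samples and from 1.18 to 6.74 against WT replicates 1 and 3.

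Genes with a deeper dip in WT replicate 2 also tended to differ more between the EID replicates. Across the 37 genes, the difference of WT replicates 1 and 3 from replicate 2 and the difference of EID replicate 2 from replicate 1 had a Pearson r of 0.55 and a Spearman rank correlation of 0.60, and across the 28 genes whose mean was 20 or more these were 0.65 and 0.67. Over all 18156 genes tested r was 0.05 and the rank correlation -0.001, and over the 13769 of them with a mean of 20 or more these were 0.12 and 0.001. The points share the same 5 libraries, and genes are not independent replicates. Mmrn2, Emcn and Sox17 lay high on both differences, while S1pr1 and Rasip1 lay low on both.

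**Figure D3:**
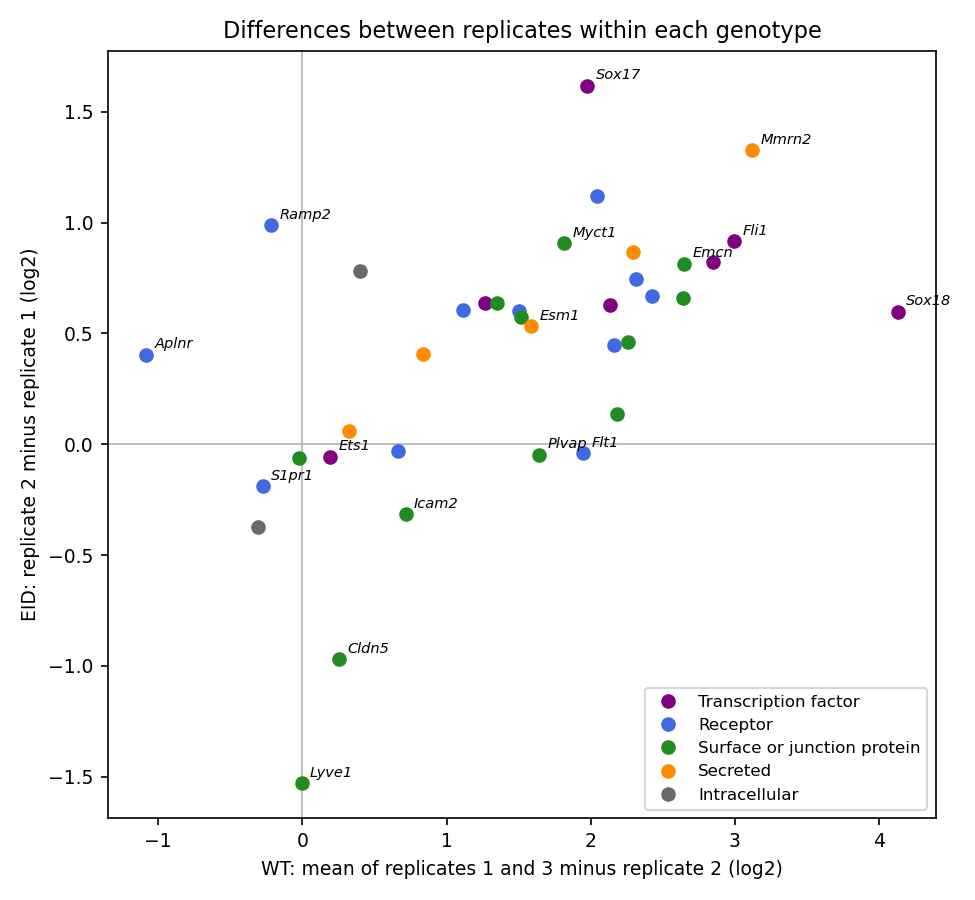
Difference within WT (mean of replicates 1 and 3 minus replicate 2, log2 scale, horizontal axis) against difference within EID (replicate 2 minus replicate 1, log2 scale, vertical axis), 1 point per endothelial gene coloured by role. Most of the 37 genes lie in the upper right, and r is 0.55.

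A second list of 38 other endothelial genes, not among the 37, was read in the same way. Of these, 35 reached 5 normalized counts, and Gpihbp1, Mmrn1 and Etv2 had no read. None passed with limma. At an unadjusted p under 0.05, 11 were higher and 1 lower, beside 6.93% and 8.31% of all genes, and DESeq2 called 2 higher, Notch4 and Stab1, and 1 lower, Slc9a3r2, beside 2.38% and 3.17%. Both EID samples lay above every WT sample for 18 of the 38, beside 16.7% of all genes, and the median log2 fold change was 0.67 (0.61 without WT replicate 2). Among these 18, Sele, Ushbp1 and Bmx reached 5 normalized counts only in EID, and Sele is also among the 11. With means of 20 or more, the largest differences were those of Adgrf5, an adhesion receptor of capillaries, Adgrl4, an adhesion receptor of angiogenic endothelium, and Cd93, a lectin receptor that binds Mmrn2. Adgrf5 was at 112, 23.6 and 149 in WT and 351 and 652 in EID (log2 fold change 2.68 ± 0.74, SE, or 1.88 without WT replicate 2). For Adgrl4 and Cd93 the log2 fold changes were 2.60 and 2.36, and without WT replicate 2 they were 1.44 and 1.52. All of these 3 had the order of Pecam1, with WT replicate 2 lowest and EID replicate 2 highest.

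The ligands and co-receptors that act on the endothelial receptors had fold changes centred near 0. Of 22 vascular signalling genes, 21 were tested. With limma 1 passed as higher and none as lower, beside 1.09% and 1.14% of all genes. DESeq2 called 2 higher, Nrp2 and Angpt2, and 3 lower, Angpt1, Slit2 and Plxnd1, beside 2.38% and 3.17%. The median log2 fold change was -0.08 (-0.19 without WT replicate 2). Nrp2, a co-receptor for VEGF-C and semaphorins, rose from 721 ± 19.6 (SD, n = 3) to 1153 ± 30.5 (SD, n = 2), and its log2 fold change was 0.68 ± 0.07 (SE), with an adjusted p of 0.00772 from limma. Without EID replicate 1 or 2 that adjusted p was 0.0701 and 0.102. Angpt1, the TIE2 agonist made by mural and stromal cells, was at 587, 579.9 and 506 in WT and 334 and 208 in EID, with an adjusted p of 0.0502 from limma and 0.00013 from DESeq2. It passed with limma at a pseudocount of 5, with equal totals and with TMM factors (adjusted p 0.0459, 0.0476 and 0.0489). At a pseudocount of 0.5, with quantile normalization and without the filter on low values it did not pass with limma (adjusted p 0.0535, 0.0548 and 0.147). Angpt2, the angiopoietin released by activated endothelium, was at 111, 46.0 and 111 in WT and 266 and 198 in EID, with an adjusted p of 0.143 from limma and 0.00996 from DESeq2. The receptor Tek and its ligand Angpt2 were thus above WT in both EID samples while its ligand Angpt1 was below. Slit2, a ligand of the Robo family, was at 193, 142 and 139 in WT and 85.9 and 75.3 in EID, with an adjusted p of 0.0694 from limma and 0.00723 from DESeq2. Apela, a ligand of the apelin receptor, had no read in any sample.

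Markers of other cell types that digested muscle holds were read beside these values. The 9 fibro-adipogenic genes summed to 422 to 2803 normalized counts in WT, with WT replicate 2 again lowest, and to 1750.2 to 2168 in EID. Cd248, the gene with the highest level per kb among them, was at 671, 112 and 532 in WT and 434 and 506 in EID, and none of the 9 passed. The 8 Schwann cell genes summed to 237 to 835 in WT, lowest in replicate 2, and to 659 to 980.2 in EID, with Ngfr at 71.6, 34.8 and 295 in WT and 344 and 201 in EID and none called. The dip of WT replicate 2 was therefore also present in these lists, while their sums overlapped between the genotypes. With all samples, all 8 Schwann genes and all 9 fibro-adipogenic genes had log2 fold changes above 0, with medians of 1.31 (0.69 without WT replicate 2) and 0.45 (0.005 without it). Of the 9, Lum and Pi16 had at most 3 reads in every sample and were not tested. Without WT replicate 2, Pdgfra, Ly6a, Cd248 and Smoc2 were at -0.68, -0.50, -0.35 and -0.15. Dcn, Dpt and Col15a1 were then still above 0, at 1.69, 0.42 and 0.14. The part of these cell types in the endothelial result was not tested.

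The 8 mural genes summed to 10989 to 12819 in WT and to 9956 to 10016 in EID. Abcc9 was the largest part of each sum, so the sums are no measure of the number of mural cells. Kcnj8 and Higd1b had at most 3 reads in every sample and were not tested. Of the 8, 2 had both EID samples below every WT sample and 2 had both above, orders found for 15.9% and 16.7% of all genes. The part of mural cells in the endothelial result was not tested. Rgs5, a G protein regulator of pericytes, fell from 93.8 ± 30.3 (SD, n = 3) to 10.7 ± 1.28 (SD, n = 2) (log2 fold change -2.97 ± 0.32, SE, adjusted p 0.00759 from limma). Notch3, the Notch receptor of mural cells, which satellite cells also express, fell from 2819 ± 61.5 (SD, n = 3) to 1011 ± 436 (SD, n = 2). Its log2 fold change was -1.55 ± 0.23 (SE), with an adjusted p from limma of 0.0280, or 0.119 without the filter on low values. The Rgs5 call was lost without either EID replicate (adjusted p 0.0929 and 0.0966 from limma), and that of Notch3 without any one WT replicate (adjusted p 0.112, 0.0792 and 0.0625 from limma). Cspg4, the proteoglycan NG2, was at 2545, 1821 and 1903 in WT and 2746 and 2676 in EID, and Myh11, the smooth muscle myosin, was at 41.5, 22.4 and 84.5 in WT and 128.8 and 106 in EID, both chosen after their values were seen because they went against Rgs5 and Notch3. Abcc9, the mural gene with the highest level per kb, was at 5940.0, 7209 and 5385 in WT and 5144 and 5853 in EID. The 12 haematopoietic genes summed to 93.7 to 107 in WT and to 241 and 90.5 in EID replicates 1 and 2. Ptprc (CD45) had at most 2.68 normalized counts in any sample and Cd52 at most 0.894, and Lyz2, a macrophage lysozyme, was at 6.18, 32.5 and 6.22 in WT and 134 and 4.48 in EID. Itgam, an integrin of myeloid cells, was at 50.4, 38.1 and 57.2 in WT and 25.0 and 39.4 in EID, and Cd68, a lysosomal protein of macrophages, was at 20.3, 19.1 and 17.4 in WT and 34.0 and 35.0 in EID. The part of blood cells in the values of Fli1, Tal1 and Cd34 was not tested.

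**Figure D4:**
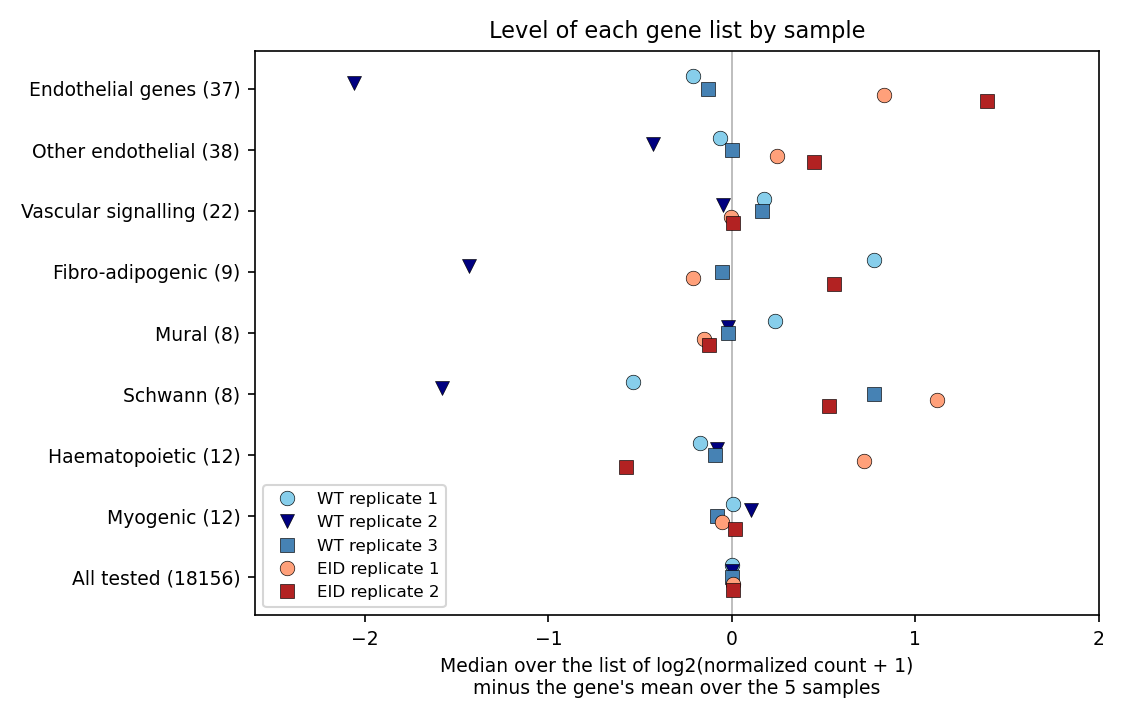
Median over each gene list of log2(normalized count + 1) minus the mean of the gene over the 5 samples (horizontal axis), with 1 row per list, its number of genes in brackets and 1 symbol per sample. The endothelial genes ran from -2.06 in WT replicate 2 to 1.39 in EID replicate 2, while the myogenic genes and all genes tested stayed near 0.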

How the data were processed

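Poly-A RNA was sequenced from primary mouse myoblasts at 72 h of differentiation, from WT (n = 3) and Elmo2 EID/EID (n = 2) cultures, with groups and replicate numbers from the sample labels. The authors aligned untrimmed reads to GRCm38 with STAR 2.5.1b, counted uniquely mapped, reverse-stranded reads per gene with featureCounts 1.4.6 and deposited these counts as a normalized signal, scaled with DESeq2 1.34.0 size factors. To recover reads, the values of a sample were divided by the smallest one above 0, and 100% of values were whole within 0.01 of a read. GENCODE M21 matched 54165 of 54232 identifiers.

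Fold changes are EID over WT on log2(normalized count + 1), which understates changes of low genes. The test was limma 3.58.1 with a mean-variance trend, two-sided, with Benjamini-Hochberg adjustment (threshold 0.05) over the 18156 genes that reached 5 normalized counts in any sample. edgeR 4.0.16 and DESeq2 1.42.0 on recovered reads, other pseudocounts, filters and scalings, a replicate block, and the omission of 1 sample at a time were alternatives, and limma, edgeR and DESeq2 were also run on simulated data. The endothelial genes and the other marker lists were chosen with earlier results of these data known. Values in every sample were to be given for genes called by any tool and the 3 of each role with the highest level per kb; from the 2 further vascular lists, genes called by limma and the 3 with the largest change at a mean of at least 20 were named, and from each other list genes called by limma and the highest by level. Values of further endothelial genes, and those of Ptprc, Cd52, Itgam, Cd68, Cspg4 and Myh11, were added after they were seen. Replicates differed by more than sampling noise (chi-square per degree of freedom 26.6 to 37.8). Per the study, primary cells were typically taken from several independent mice, but which animals gave these samples is not stated, so p-values measure only the spread between these samples. Counts of 3 reads or fewer (2.65 to 3.73 normalized counts) were taken as the lower limit, which covers counting error only.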

Additional observations from a re-analysis of the deposited data

How the results depend on the processing

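The number of endothelial genes called higher depended on the test and on single samples, and no setting called one lower. It was 1 with limma, 0 without a filter on low values, 0 without the mean-variance trend, 4 with edgeR and 13 with DESeq2, while the calls over all genes went from 404 to 155, 144, 408 and 961. Leaving out 1 sample at a time gave 0 to 7 endothelial genes and 54 to 349 genes in all: 0 without WT replicate 1 or either EID replicate, 7 without WT replicate 2 and 3 without WT replicate 3. With 1 EID sample left, that sample is assumed to vary like the WT samples. Among the vascular signalling and other endothelial genes, 1 call became 2 at a pseudocount of 5, with equal totals or with TMM factors, 0 without the trend and 8 with DESeq2, and 0 to 2 when 1 sample was left out. The median fold changes of the transcription factors and of the surface genes kept their direction under every alternative. Of the values for single genes under the other settings, the crossed pairing below excepted, 660 kept direction and side of the threshold, 35 passed it newly, 19 no longer passed and 1 reversed: Clec14a, at 0.17 on the log2 scale with all samples, ran from -0.11 without WT replicate 1 to 0.44 without WT replicate 3. The cause of these changes was not tested.

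The labels do not say whether equal replicate numbers pair a WT with an EID sample. Across 13769 genes, the differences of replicate 1 from replicate 2 in WT and in EID had r = -0.24. That value cannot show whether samples were prepared together, since differences between the cultures enter it as well. With the replicate number as a block, 2 endothelial genes, 0 vascular signalling or other endothelial genes and 224 genes in all were called, the 2 being Flt1 and Plvap, while Esm1 no longer passed (adjusted p 0.0727 from limma). A crossed pairing, which the labels do not give and which was chosen after that negative r was seen, so that a smaller residual spread was built into the choice, gave 23, 12 and 1041.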
